A study of Arabidopsis thaliana with 6 samples.

Results

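NAC factors are plant transcription factors that share a DNA-binding NAC domain at the N terminus and differ in the region that activates or represses transcription. The 10 studied here are known from leaves and seedlings, where they act in abscisic acid, jasmonate, wounding and carbon starvation responses and in the timing of leaf senescence. They were chosen by locus as RD26 (AT4G27410), ANAC019 (AT1G52890), ANAC055 (AT3G15500), ATAF1 (AT1G01720), ATAF2 (AT5G08790), ORE1 (AT5G39610), NAP (AT1G69490), VNI2 (AT5G13180), ANAC032 (AT1G77450) and ANAC102 (AT5G63790), 10 of the 30509 genes with a value, and their array values were not used to choose them. RD26, ANAC019 and ANAC055 form a stress subgroup that binds the promoter of the dehydration gene ERD1. ATAF1, ATAF2, ANAC032 and ANAC102 form the ATAF subgroup. ORE1 and NAP are activators of leaf senescence, and VNI2 is a repressor of vessel formation that also delays leaf ageing.

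RNA was measured in DT and DS seeds of Arabidopsis thaliana accession Col-0 that had germinated to radicle protrusion (stage II). DT seeds were kept for 3 d in the dark at 22°C in polyethylene glycol (PEG) of -2.5 MPa, an osmotic treatment after which germinated seeds tolerate drying again. DS seeds were collected upon germination under constant white light, got no PEG and do not survive drying. There were 3 DT and 3 DS arrays, 1 for each biological replicate, and every replicate was a pool of whole germinated wild-type seeds. Light and time since germination differed along with PEG and cannot be told apart from it. In such whole seeds a lower signal can come from fewer cells of a type or from less RNA per cell, and these cannot be told apart either.

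Values are quantile-normalised log2 signals of an Affymetrix tiling array, 1 per gene. The arrays had like medians, 4.72 to 4.73 in DT and 4.76 to 4.78 in DS, and correlated at 0.957 to 0.975 within DT, 0.972 to 0.977 within DS and 0.798 to 0.819 between the groups. The number of arrays limits the precision, since an exact permutation test of 3 against 3 cannot give a p below 0.1, and single genes are therefore given the p of limma adjusted over all genes by Benjamini-Hochberg. The seed reserve markers CRA1, CRU3 and OLEO1 were 3.39 to 4.20 higher in DT on the log2 scale. Of the green seedling markers, RBCS1A was at 8.51 in DT and 8.75 in DS (difference -0.24, adjusted p = 0.00361). LHB1B1, at 4.63 in DT and 4.56 in DS, did not pass (adjusted p = 0.764). Of the endosperm markers, MAN7 was 1.21 higher in DT, and EPR1 did not pass (0.17, adjusted p = 0.404). The part of these markers in the results below was not tested. The arrays have no true zero, so a background level was set at 4.93, the 95th percentile of the mean signal of 2862 annotated pseudogenes, and 12886 genes (42.2%) lay above it in the DT or the DS mean. LHB1B1 lay below this level in both groups.

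Of the 10 NAC factors, ATAF1 and ANAC032 were higher in DT, and ATAF2, ANAC102 and VNI2 were lower in DT. The other 5, RD26, ANAC019, ANAC055, ORE1 and NAP, did not pass the test. Over all genes 9.97% were called higher and 19.9% lower at an adjusted p of at most 0.05, together 29.9%. No member reached the 2-fold difference that the study used as its filter, which 2.22% of all genes passed at an unadjusted p of at most 0.05, 0.862% higher and 1.36% lower. DT and DS arrays did not overlap in the 5 called members, as in 42.4% of all genes. The median log2 difference of the 10 members was -0.02, and that of all genes was -0.02. The 5 called members were also the 5 with a mean above the background level in DT or DS, ATAF2 by its DS mean, and 59.3% of all genes above that level were called. The means of the remaining 5 lay below the level in both groups, where these arrays do not tell a weakly expressed gene from one without signal.

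**Figure D1:**
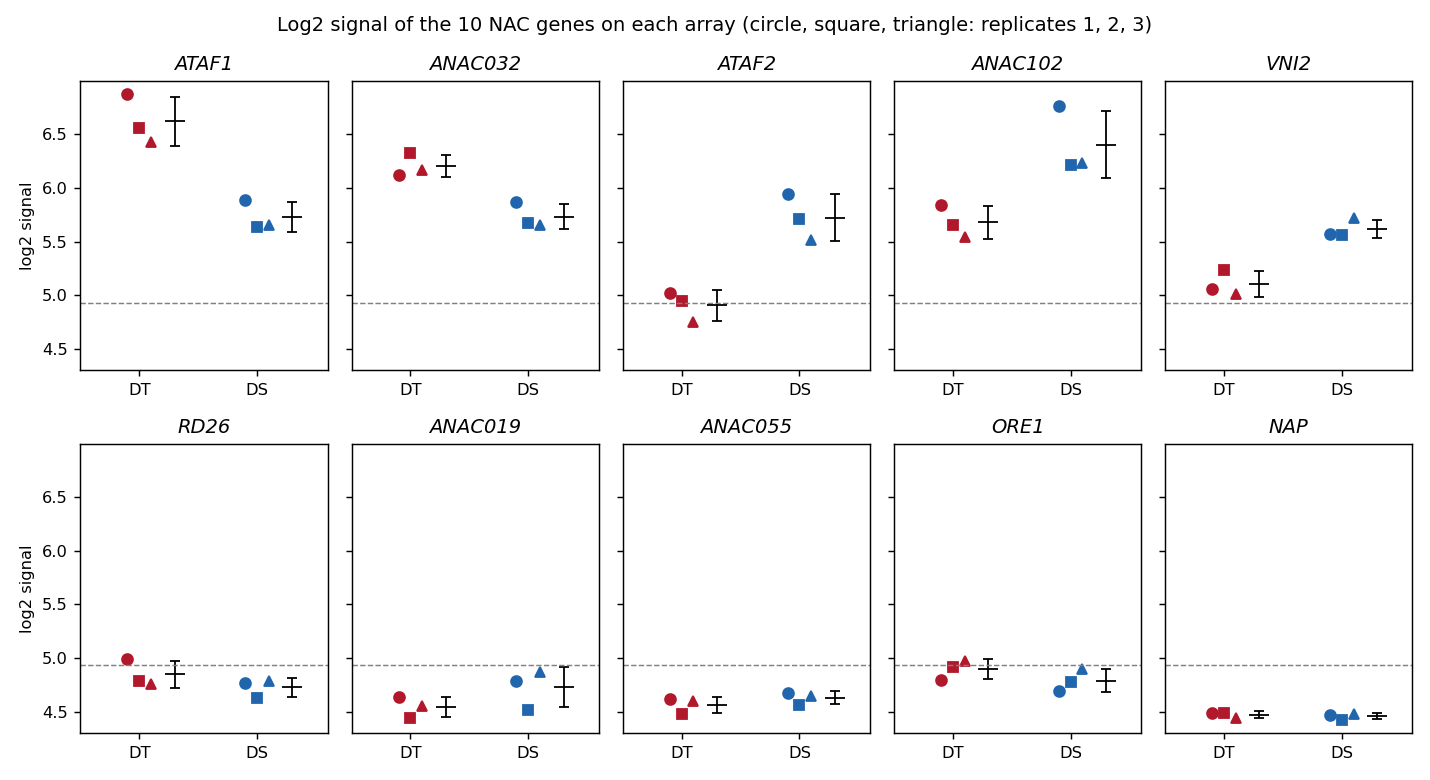
The log2 signal of each of the 10 NAC factors on each array (points), with DT left of DS in every panel, the group mean with its SD (n = 3) as a black bar beside the points and the background level of 4.93 as a dashed line. The 3 DT points lie above the 3 DS points for ATAF1 and ANAC032 and below them for ATAF2, ANAC102 and VNI2.

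ATAF1, an abscisic acid and starvation responsive factor reported to activate ORE1 and to repress the chloroplast regulator GLK1, had the largest difference of the 10. Its log2 signal was 6.87, 6.55 and 6.43 on the DT arrays and 5.89, 5.63 and 5.66 on the DS arrays. The lowest DT array was above the highest DS array. The mean was 6.62 ± 0.23 in DT and 5.73 ± 0.14 in DS (SD, n = 3 each), a log2 difference of 0.89 (SE 0.119, 95% interval 0.61 to 1.17, limma adjusted p = 0.000804), or 1.85-fold. Leaving out any single array gave 0.76 to 0.98. ATAF1 lies at chr1:267993-269819 on the plus strand in TAIR10.1, in 3 exons. It overlaps on the opposite strand with AT1G01725 by 28 bases, and that gene was 0.32 higher in DT (adjusted p = 0.00996). The overlap with the long noncoding RNA gene AT1G04043 is 344 bases, and AT1G04043 has no value here. Whether the gene values separate the strands is not given in the sources used here.

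ANAC032, its closest relative among the members in coding sequence, moved the same way. ANAC032 is known to be induced by stress and to promote age-related and stress-induced senescence. The DT arrays were at 6.12, 6.32 and 6.16 and the DS arrays at 5.87, 5.67 and 5.65. All 3 DT values were above the 3 DS values. The mean was 6.20 ± 0.11 in DT and 5.73 ± 0.12 in DS, a difference of 0.47 (SE 0.0778, 95% interval 0.29 to 0.65, adjusted p = 0.00246), or 1.38-fold. The gene lies at chr1:29099839-29101759 on the plus strand and overlaps no other annotated gene.

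ATAF2, a repressor of pathogenesis-related genes that is induced by wounding, fell by 0.82 in DT. Its values were 5.02, 4.95 and 4.75 in DT and 5.94, 5.71 and 5.51 in DS. The highest DT array stood below the lowest DS array, and the DT mean of 4.91 ± 0.14 was just under the background level, against 5.72 ± 0.22 in DS. The 95% interval of the difference was -1.08 to -0.55 (SE 0.115, adjusted p = 0.00103). ATAF2 lies at chr5:2858849-2860558 on the minus strand. The gene AT5G08780, which overlaps its end by 158 bases on the other strand, differed by 0.09 (adjusted p = 0.254).

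ANAC102, a factor of the hypoxia response of germinating seeds, also fell. It had 5.84, 5.65 and 5.54 in DT and 6.76, 6.22 and 6.23 in DS. DS replicate 1 was higher than the other DS arrays, and every DT array lay below all DS arrays. The mean was 5.68 ± 0.15 in DT and 6.40 ± 0.31 in DS, a difference of -0.72 (SE 0.150, 95% interval -1.07 to -0.38, adjusted p = 0.00744). Without DS replicate 1 the difference was the smallest of those with an array left out, -0.54, and it still passed. ANAC102 lies at chr5:25526509-25528281 on the minus strand, and AT5G63780, which overlaps it by 85 bases on the opposite strand, was 0.26 lower in DT (difference -0.26, adjusted p = 0.00493).

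In the ATAF subgroup the pairs nearest in sequence moved the same way. The coding sequences of ATAF1 and ANAC032 were 63.6% identical and those of ATAF2 and ANAC102 63.7%, against 60.6% between ATAF1 and ATAF2. Each of the first pairs shared 2 runs of 25 bases between its transcripts, the usual length of an Affymetrix probe, ANAC055 and ATAF2 shared 8, and no other pair of members shared any. Runs that overlap were counted separately, so these counts are not numbers of separate regions. The part of probes that could read more than 1 of these genes was not tested.

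**Figure D2:**
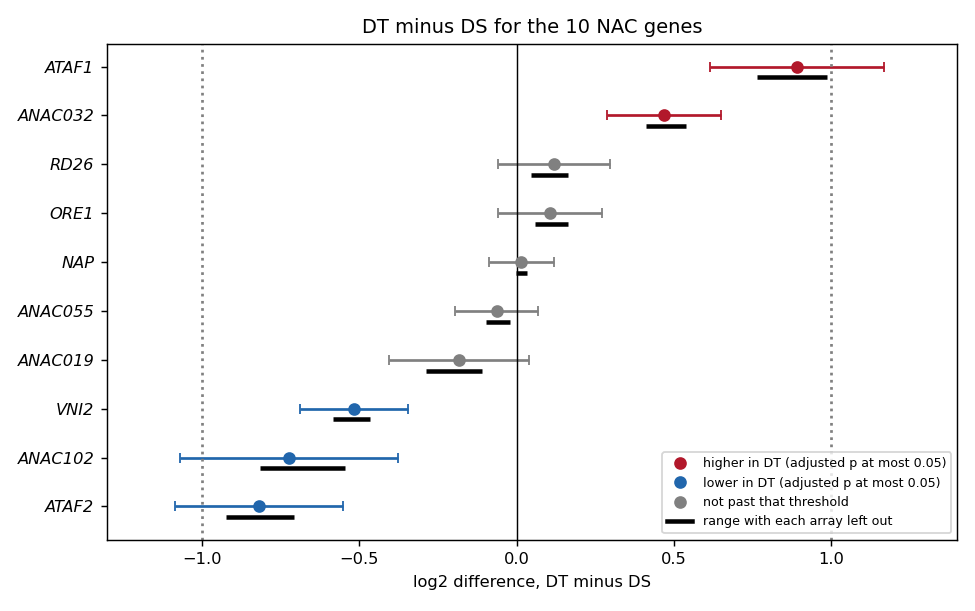
The log2 difference DT minus DS of each of the 10 NAC factors (points) with its 95% interval from limma (lines), the range with each array left out as a black bar under it, a vertical line at 0 and dotted lines at -1 and 1, the 2-fold filter. ATAF1 and ANAC032 lie right of 0, ATAF2, ANAC102 and VNI2 left of it, and no point passes a dotted line.

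The sequences just before the 4 ATAF genes show how the pairs compare where the abscisic acid response element core is concerned. The core ACGTG was searched on both strands in the 250 bases before each annotated gene start and is printed in capitals, and where it is part of the palindromic G-box CACGTG the G-box is in capitals. The sequences are the RefSeq TAIR10.1 assembly, written 5′ to 3′ on the strand of the gene, at chr1:267743-267992 for ATAF1, chr1:29099589-29099838 for ANAC032, chr5:2860559-2860808 for ATAF2 and chr5:25528282-25528531 for ANAC102.
ATAF1: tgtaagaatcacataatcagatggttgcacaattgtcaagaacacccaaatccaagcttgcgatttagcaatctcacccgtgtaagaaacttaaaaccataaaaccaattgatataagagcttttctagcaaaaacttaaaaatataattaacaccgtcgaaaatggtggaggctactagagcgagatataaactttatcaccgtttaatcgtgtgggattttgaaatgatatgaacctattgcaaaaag
ANAC032: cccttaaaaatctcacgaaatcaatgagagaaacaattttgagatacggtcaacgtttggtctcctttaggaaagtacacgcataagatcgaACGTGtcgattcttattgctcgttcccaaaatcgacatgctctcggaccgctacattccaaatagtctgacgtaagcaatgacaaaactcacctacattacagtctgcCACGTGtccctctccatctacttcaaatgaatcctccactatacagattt
ATAF2: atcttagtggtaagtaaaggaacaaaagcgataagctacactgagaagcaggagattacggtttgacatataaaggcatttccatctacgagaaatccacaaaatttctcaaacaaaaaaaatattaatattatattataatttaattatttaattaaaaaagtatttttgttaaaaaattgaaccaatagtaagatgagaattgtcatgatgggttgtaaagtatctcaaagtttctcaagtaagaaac
ANAC102: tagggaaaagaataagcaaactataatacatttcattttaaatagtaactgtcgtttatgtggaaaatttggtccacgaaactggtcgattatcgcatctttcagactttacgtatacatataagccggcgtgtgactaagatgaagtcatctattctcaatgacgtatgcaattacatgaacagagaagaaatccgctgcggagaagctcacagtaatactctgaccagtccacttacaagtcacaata
ANAC032 held ACGTG 3 times, 2 of them the 2 strands of 1 G-box, and ATAF1, ATAF2 and ANAC102 held none. Among the other members, ANAC019 held it 3 times, NAP 2 times, RD26 and VNI2 1 time each, and ORE1 and ANAC055 not at all. The core was thus in 5 of the 10 windows, and in 23.2% of the windows of 25955 genes. The G-box was in 3 of 10 (ANAC019, NAP and ANAC032) and in 6.68% of all windows. The dehydration-responsive core CCGAC was in the window of RD26 and in 12.0% of all, and CATGTG, a motif bound by RD26, ANAC019 and ANAC055 in the ERD1 promoter, was in none of the 10 and in 11.1% of all. The shorter NAC core CACG, which overlaps ACGTG and CACGTG, was in 7 of 10 windows and 45.7% of all. Of the 5 called members, ANAC032 (higher in DT) and VNI2 (lower in DT) held ACGTG. A match is a run of letters, not a shown site.

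VNI2, which binds the vessel regulator VND7 and represses its targets, and which raises COR and RD genes in ageing leaves, was lower in DT. The DT arrays were at 5.06, 5.24 and 5.01 and the DS arrays at 5.57, 5.57 and 5.72. The groups did not overlap. The mean was 5.10 ± 0.12 in DT and 5.62 ± 0.08 in DS, a difference of -0.52 (SE 0.0737, 95% interval -0.69 to -0.34, adjusted p = 0.00113). Of the xylem markers, the vessel proteases XCP2 and XCP1 also fell, by 0.88 and by 0.44, and the cellulose synthase IRX3 differed by -0.17 (adjusted p = 0.0593). VND7 itself was below the background level, at 4.41 in DT and 4.53 in DS (difference -0.12, adjusted p = 0.0984). The part of xylem cells in the VNI2 value was not tested. VNI2 lies at chr5:4196256-4197940 on the plus strand, and 306 bases of it overlap with AT5G00390 on the opposite strand, which has no value here.

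The stress subgroup did not pass the test. RD26, a dehydration and abscisic acid induced activator that also acts in senescence, had 4.99, 4.79 and 4.76 in DT and 4.77, 4.63 and 4.79 in DS. The groups overlapped, with DT replicate 1 above the other arrays. The difference was 0.12 (SE 0.0765, 95% interval -0.06 to 0.30, adjusted p = 0.314), which leaves room for a difference of up to 0.30 on the log2 scale of these signals.

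ANAC019, which acts in abscisic acid and jasmonate signalling, had 4.64, 4.44 and 4.55 in DT and 4.79, 4.52 and 4.87 in DS. DS replicate 2 lay among the DT arrays and the other DS arrays above them. The difference was -0.18 (SE 0.0961, 95% interval -0.41 to 0.04, adjusted p = 0.217). Without DS replicate 2 it was -0.29 and passed (adjusted p = 0.0293).

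ANAC055, the nearest relative of ANAC019 with 75.9% of the coding sequence identical and no shared run of 25 bases, had 4.62, 4.48 and 4.60 in DT and 4.68, 4.56 and 4.65 in DS. The groups overlapped. The difference was -0.06 (SE 0.0573, 95% interval -0.20 to 0.07, adjusted p = 0.493). RD26 lies at chr4:13707192-13709170 (minus strand), ANAC019 at chr1:19696923-19698482 (minus strand) and ANAC055 at chr3:5234457-5236196 (plus strand), and none of them overlaps another gene.

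The senescence activators did not pass either. ORE1, which drives age-dependent cell death and chlorophyll loss in leaves, had 4.80, 4.92 and 4.98 in DT and 4.69, 4.78 and 4.90 in DS. The groups overlapped, and the difference was 0.11 (SE 0.071, 95% interval -0.06 to 0.27, adjusted p = 0.332).

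NAP, which links abscisic acid to leaf senescence and chlorophyll breakdown, had the narrowest spread of the 10. It was at 4.49, 4.49 and 4.44 in DT and at 4.47, 4.43 and 4.48 in DS. The arrays were interleaved. The difference was 0.02 (SE 0.0445, 95% interval -0.09 to 0.12, adjusted p = 0.852). ORE1 lies at chr5:15858398-15859911 (minus strand) and NAP at chr1:26122080-26123514 (plus strand), and neither overlaps another gene.

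ORE1 is held down in young leaves by the microRNA miR164, which also targets CUC1, CUC2, NAC1, ANAC080 and ANAC100. The mature microRNAs of the 3 MIR164 genes are shown because ORE1 is the member with a paired site. Bases 2 to 8, the seed, are in capitals, and all 3 share it.
MIR164A: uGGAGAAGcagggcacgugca
MIR164B: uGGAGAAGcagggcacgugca
MIR164C: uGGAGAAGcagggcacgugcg
The best-pairing sites in the RefSeq transcripts of ORE1, ANAC100 and ANAC080 follow, with letters in capitals where the base is unpaired or a G-U wobble to the MIR164A sequence.
ORE1 site: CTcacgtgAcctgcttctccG
ANAC100 site: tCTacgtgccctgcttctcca
ANAC080 site: tTTacgtgccctgcttctcca
The ORE1 site lies in the coding sequence at chr5:15858797-15858817 on the minus strand and had 17 paired bases, 1 wobble and 3 mismatches of 21. The sites of ANAC100, ANAC080 and NAC1 had 19 paired bases each, those of CUC1 and CUC2 18, and the best stretch in any other member had 11 to 13. Of the 5 other miR164 targets, ANAC100 and ANAC080 fell, beside 19.9% of all genes called lower. ANAC100 was at 4.96 in DT and 5.35 in DS (difference -0.39, adjusted p = 0.0104). ANAC080 was at 4.90 in DT and 5.20 in DS (difference -0.30, adjusted p = 0.0318). NAC1 (difference -0.04, adjusted p = 0.64), CUC1 and CUC2 did not pass, and these lay below the background level in both groups. The call for ANAC080 was lost on leaving out any single array but DT replicate 3, with differences of -0.34 to -0.22, and with the quantile step repeated (-0.23).

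The array holds 1 value for each MIR164 gene, which reads its precursor transcript and not the mature microRNA. MIR164C had 5.33, 4.88 and 5.01 in DT and 5.03, 4.57 and 4.43 in DS. DT replicates 2 and 3 lay below DS replicate 1, and the difference of 0.40 did not pass (SE 0.169, adjusted p = 0.127). Without DS replicate 1 it was 0.58 and passed (adjusted p = 0.0186). MIR164A differed by 0.04 (adjusted p = 0.749) and MIR164B by -0.11 (adjusted p = 0.422). MIR164A lay below the background level in both groups, at 4.36 in DT and 4.31 in DS.

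Of 20 listed regulators of these NAC genes (the 3 MIR164 genes among them), 15 were above the background level. Of all genes above that level 59.3% were called. Of the 20, 6 were higher and 4 lower in DT, with a median of 0.03. The 6 were the abscisic acid bZIP factors EEL, ABI5 and ABF4, the ERD1 regulator ZFHD1, the ethylene factor EIN3, which activates ORE1, and the jasmonate factor MYC3. EEL had the largest rise, 1.81 (6.43 in DT and 4.62 in DS, adjusted p = 5.5e-06). ABI5, the seed bZIP, was 0.89 higher, ZFHD1 0.77, EIN3 0.59, MYC3 0.41 and ABF4 0.27. ABF3, another abscisic acid bZIP factor, fell by 0.41 (4.61 in DT and 5.02 in DS, adjusted p = 0.00153). NLA, a ubiquitin ligase that targets ORE1 protein, fell by 0.34, the dark-senescence factor PIF5 by 0.27 and MYC2, which activates ANAC019 and ANAC055, by 0.22. The MYC2 call was lost without DT replicate 1 (-0.19), DT replicate 2 (-0.21) or DS replicate 2 (-0.19), and with the quantile step repeated (-0.13). The bZIP factors thus did not share a direction.

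Of 20 genes reported as targets of the members, 3 were higher and 3 lower in DT, with a median of 0.05. Over all genes 9.97% were higher and 19.9% lower. Of the 20, 8 were above the background level. RD29B, a dehydration gene, had 7.46, 7.31 and 7.20 in DT and 4.84, 4.94 and 4.98 in DS, 2.40 higher in DT (adjusted p = 7.44e-07). RD29A, its neighbour and a reported VNI2 target, was 1.50 higher (6.08 in DT and 4.58 in DS, adjusted p = 6.21e-06). Other regulators, such as the AREB and DREB factors, also act on both RD29 genes. The trehalase gene TRE1, reported for ATAF1, was 0.40 higher.

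Of those that fell, SAG29, a sugar transporter of the SWEET family that ORE1 activates, had 4.90, 4.91 and 5.19 in DT and 6.24, 6.41 and 6.40 in DS, a difference of -1.35 (adjusted p = 2.04e-05). ICS1, the salicylic acid synthesis gene that the RD26 subgroup represses, fell by 0.58, and the chloroplast regulator GLK2 by 0.20. Others did not pass. ERD1 differed by 0.06 (95% interval -0.05 to 0.17) and NCED3, the abscisic acid synthesis gene, by 0.04 (-0.06 to 0.15). The ORE1 target nuclease BFN1 differed by -0.01 (-0.11 to 0.09) and COR15A by 0.08 (-0.08 to 0.24). NCED3, BFN1 and COR15A lay below the background level in both groups. GLK1, which ATAF1 represses in leaves, differed by -0.13 (adjusted p = 0.11).

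Of 13 senescence-associated genes none was higher and 4 were lower in DT at the adjusted threshold, with a median of -0.15. Beside this, 9.97% of all genes were higher and 19.9% lower. Only 6 of the 13 were above the background level, where 59.3% of all genes were called. Without DT replicate 1, 7 of the 13 were lower, and with arrays centred or the quantile step repeated 1 was higher. SAG20, a wound-induced gene, fell by 1.09 (5.18 in DT and 6.27 in DS). SAG21, a late embryogenesis abundant protein of mitochondria, was at 7.03, 6.09 and 6.01 in DT and at 7.55, 7.35 and 7.42 in DS, a difference of -1.06 (adjusted p = 0.0117). DT replicate 1 was well above the other DT arrays and below all DS arrays. WRKY45 fell by 0.49 and WRKY6 by 0.47. The leaf senescence protease SAG12 was at 4.43 ± 0.15 in DT and 4.40 ± 0.05 in DS, under the background level in both.

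Of 9 chlorophyll breakdown genes 4 were higher and 2 lower, with a median of -0.01. Of the 9, 8 were above the background level, where 59.3% of all genes were called. SGR2 was at 5.96, 6.02 and 6.10 in DT and at 4.63, 4.66 and 4.72 in DS, 1.35 higher (adjusted p = 2.08e-06). The magnesium dechelatase SGR1 was 0.92 higher, the pheophytin hydrolase PPH 0.79 and the chlorophyll b reductase NYC1 0.53. SGRL, a relative of SGR1 and SGR2, fell by 1.13 (4.85 in DT and 5.98 in DS, adjusted p = 2.53e-06), and RCCR, of the later steps, by 0.27. The RCCR call was lost without DS replicate 1 (-0.27) or DS replicate 2 (-0.25), and with the quantile step repeated (-0.17).

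Of 7 dark and starvation genes 4 were higher and 1 lower, with a median of 0.24. Of the 7, 6 were above the background level, where 59.3% of all genes were called. The asparagine synthetase ASN1 was 0.96 higher (5.50 in DT and 4.54 in DS), and the branched-chain amino acid catabolism genes BCAT2, MCCA and IVD were 0.41, 0.33 and 0.24 higher. BCAT2 lay below the background level in both groups, at 4.91 in DT and 4.50 in DS. The leucine breakdown gene MCCB (difference -0.03) and the dark-induced SEN1 (5.97 in DT and 5.97 in DS) did not pass. DIN10, a raffinose synthase family gene named for its induction in the dark, had 5.27, 4.74 and 4.72 in DT and 6.51, 6.57 and 6.72 in DS. It fell by 1.69 (adjusted p = 7.42e-05). DT seeds were the ones kept in the dark, and the part of the dark in these values was not tested.

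**Figure D3:**
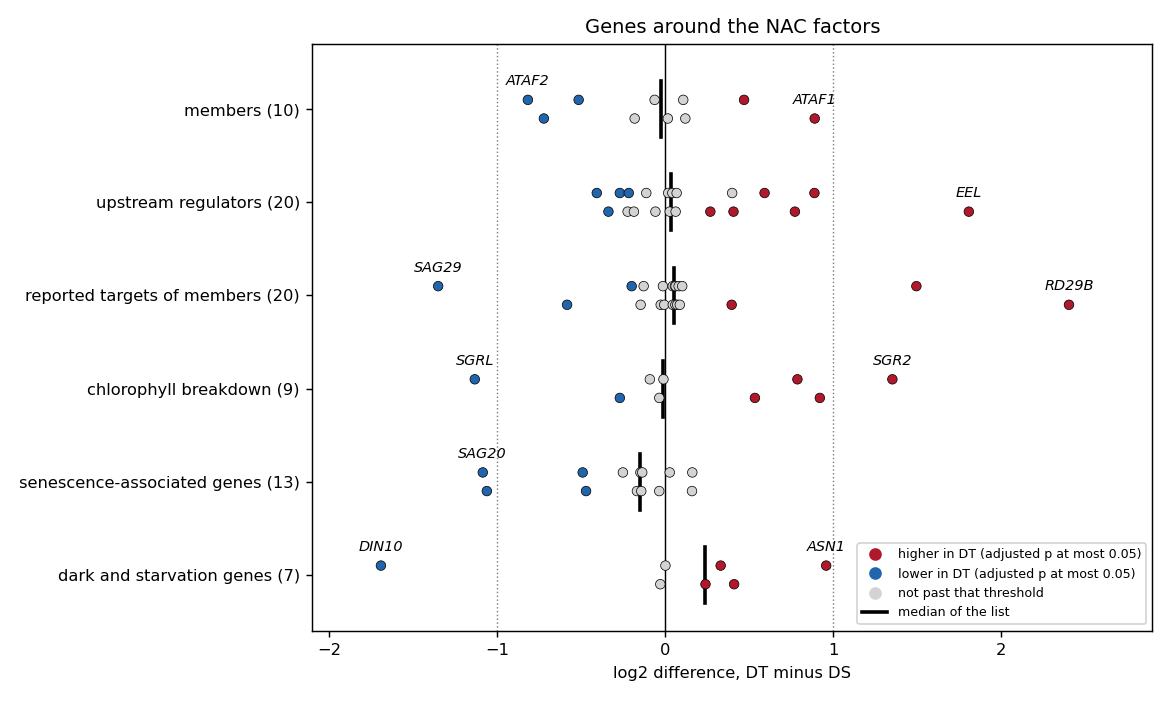
The log2 difference DT minus DS of every gene among the 10 members and in the lists of regulators, reported targets, chlorophyll breakdown, senescence-associated and dark and starvation genes (points, coloured where the adjusted p is at most 0.05), with the median of each list as a black bar and dotted lines at -1 and 1. The rightmost points are RD29B at 2.40 among the targets and EEL at 1.81 among the regulators, and the leftmost is DIN10 at -1.69.

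Other NAC genes gave values for comparison. Of 101 loci annotated as NAC genes outside the 10, 98 had a value, and 27 of those were above the background level. At the adjusted threshold 10 were higher and 15 lower in DT, with a median of -0.00. Over all genes 9.97% were higher and 19.9% lower. Some of the NAC genes called lower, among them NAC048 and NTM1, lay below the background level in both groups. Centring the arrays or repeating the quantile step instead gave 14 higher and 11 lower among these NAC genes. ANAC089, a membrane-tethered factor, was at 6.53, 6.51 and 6.58 in DT and at 4.91, 4.90 and 4.96 in DS, 1.62 higher (adjusted p = 4.9e-07) and so beyond every member. ANAC060, also membrane-tethered and active in sugar and abscisic acid signalling of seedlings, was 1.01 higher (5.58 in DT and 4.57 in DS, adjusted p = 5.75e-06), and 0.97 higher, short of 2-fold, without DS replicate 1. ANAC047, a factor of leaf movement under flooding, was at 4.54, 4.58 and 4.64 in DT and at 5.60, 5.86 and 6.07 in DS, a difference of -1.26 (adjusted p = 8.01e-05). These 3 were the NAC genes past 2-fold.

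Among 13 further NAC genes listed for senescence or stress, 4 were higher and 4 lower, with a median of -0.02. Of the 13, 10 were above the background level, where 59.3% of all genes were called. Those higher were ANAC060, NTL8 (0.46), ANAC013 (0.35) and ANAC017 (0.18). The ANAC017 call was lost without DT replicate 2 or 3 or DS replicate 1 or 2, with differences of 0.14 to 0.21. Those lower were ANAC047, JUB1 (difference -0.41), which delays senescence, and ANAC087 (-0.47) and ANAC046 (-0.34), which both act in root cap cell death. ORS1, a relative of ORE1 in senescence, differed by -0.11 (adjusted p = 0.331). Of 11 developmental NAC genes 1 was above the background level. None of the 11 was higher and 3 were lower, with a median of -0.04, beside 9.97% of all genes higher and 19.9% lower. The largest fall was that of the root cap factor BRN1 (difference -0.31, adjusted p = 0.00951). All 3, BRN1, BRN2 and the seed coat factor NAC2, lay below the background level in both groups. Leaving out DT replicate 2 or 3, or DS replicate 2 or 3, left 1 of these 3 calls, as did centring the arrays. The NAC2 call was also lost with the quantile step repeated (-0.13).

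**Figure D4:**
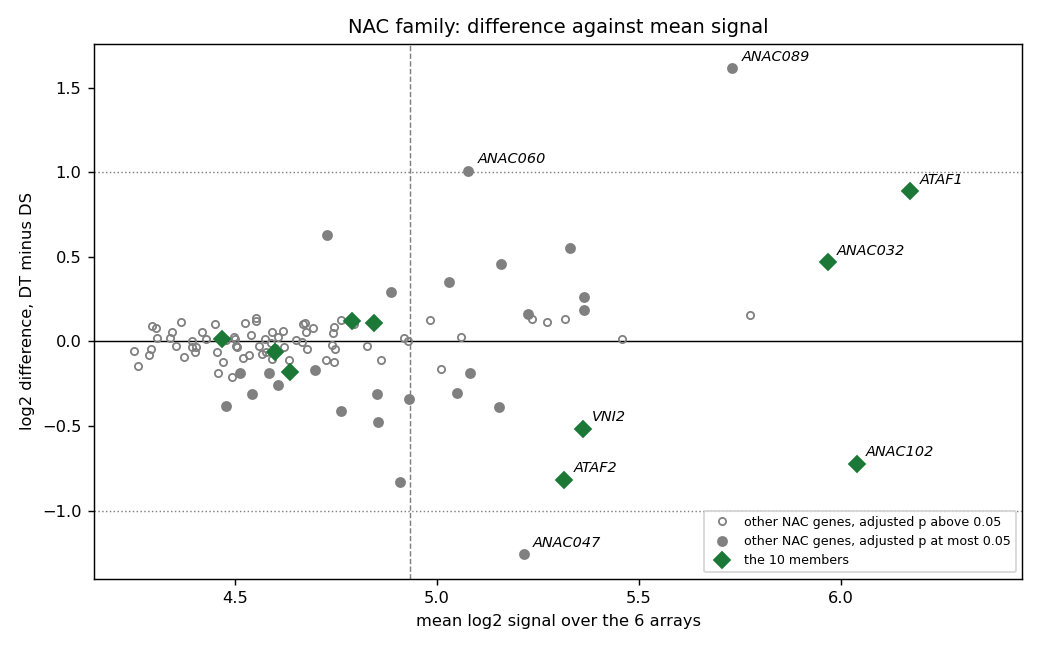
The log2 difference DT minus DS of each NAC gene against its mean log2 signal over the 6 arrays, with the 10 members as diamonds, their 5 called genes labelled, the background level of 4.93 as a dashed line and dotted lines at -1 and 1. Among the members, ATAF1 at 0.89 and ATAF2 at -0.82 mark the ends, and ANAC089, ANAC060 and ANAC047 are the points past a dotted line.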

How the data were processed

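RNA of 3 DT and 3 DS replicates was hybridized to Affymetrix SNPtile arrays, and samples were grouped by their labels. Probe signals were read out by the authors in R with a TAIR9-based annotation and quantile normalized, and the deposited values are log2 signals, 1 for each gene. Probe summary and background treatment are not given in the sources used here, and either can change low signals.

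DT minus DS was fitted to these values without covariates by limma 3.58.1 in R 4.3.3 (functions lmFit and eBayes, 6 arrays). A gene was called at a Benjamini-Hochberg adjusted p of at most 0.05 over 30509 genes, or by the filter of the study (log2 difference of at least 1 and unadjusted p of at most 0.05). No set test was made. Replicates are labelled biological.

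The members and lists were chosen with earlier results of these data known. All members were named, and of each list and the NAC family the largest rise and fall past the adjusted threshold and every 2-fold gene. Further genes were named after their values were seen. NAC genes were found by words in the annotation (110 loci), and 9 that encode no NAC factor (4 exonucleases, 1 F-box-associated protein, 1 pseudogene and 3 microRNA genes) were removed after values were seen, which took out 1 gene lower in DT. Loci were matched to RefSeq TAIR10.1 (30078 matched, 431 did not). Coding sequences were aligned with Biopython 1.88. Protein sequences were not used here. Alternatives covered the call rule, variance model, scaling, dim genes, a replicate block and each array left out.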

Additional observations from a re-analysis of the deposited data

How the results depend on the processing

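For the 10 members, 113 of 115 recomputed differences kept direction and side of the adjusted threshold. The exceptions were ANAC019, which passed without DS replicate 2 (-0.29), and NAP, whose difference was -0.0012 without that array and up to 0.033 without another. Of 806 values of 68 other genes, those called in a list or the NAC family and 5 chosen besides, 742 kept both, 53 lost the call (in 10 genes), 4 gained it and 7 changed sign, the last in genes with no call. BFN1 was at 0.036 with arrays centred on the median, 0.031 with the quantile step repeated and -0.019 to 0.012 with single arrays left out (above 0 without DT replicate 2 or DS replicate 3). SAG12 was at -0.021 to 0.11 with single arrays left out (below 0 without DT replicate 2, DT replicate 3 or DS replicate 3). With the quantile step repeated ERD1 passed (0.15). Of the genes named above GLK2 (-0.11), MYC2 (-0.13), NAC2 (-0.13), RCCR (-0.17) and ANAC080 (-0.23) then lost the call. The causes were not tested.

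With no fold filter, 3043 genes were higher and 6085 lower in DT, and 5 members were called in place of 0. The 2-fold rule called 263 higher and 415 lower. Leaving out single arrays gave 259 to 274 higher and 399 to 444 lower by the 2-fold rule, 2394 to 3363 higher and 5000 to 5664 lower by the adjusted threshold, and 8 to 10 higher and 10 to 14 lower among other NAC genes. The share of calls that were higher depended on scaling. It was 38.8% by the 2-fold rule and 33.3% by the adjusted threshold as deposited, 44.0% and 43.7% with arrays centred, and 50.5% and 47.2% with the quantile step repeated.

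Same-numbered DT and DS arrays did not deviate together (correlations 0.0612, -0.0103 and 0.104), so the numbers were not taken as pairs. With the replicate number as a block, 2958 genes were higher and 5944 lower at the adjusted threshold, 264 and 415 by the 2-fold rule, and 2 and 3 members were called. MIR164C passed with the block (adjusted p = 0.0101) and with dim genes left out (adjusted p = 0.0438). ANAC017 lost its call with the block (adjusted p = 0.0561), and 1 of the 3 calls among developmental NAC genes was left. Signals near 4.93 limit what can be seen for the 5 uncalled members.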
